A study of Mus musculus with 17 samples.

Results

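The comparison described here asked which new RNAs depended on MEK in mouse embryonic stem cells whose FGF receptors were already blocked. It was made up of the 3 libraries of cells given a MEK inhibitor (MEKi, 1 µM) and the 2 libraries of cells given DMSO, 5 of the 17 libraries of the series, chosen by their labels and by no measured value. The cells were of the E14tg2a line on a 129SV background. They lacked both Erk genes and lived on FLAG-ERK2 Q103A from a cDNA, an ERK2 whose changed ATP pocket lets the compound PP1 block it. They also carried cRAF-ErT2, a form of RAF that is turned on by 4-hydroxytamoxifen (4OHT). All groups, controls included, had this genotype and had spent 24 h in serum and LIF with the FGF receptor inhibitor PD173074 at 250 nM (with Chir99021 at 2 µM until then), so that MEKi was added on top of a receptor block. Neither the DMSO nor the MEKi cells received 4OHT. The replicates were cell clones of 1 line, clones a, b and c for MEKi and only b and c for DMSO, so that MEKi clone a had no control of its own. The p-values speak of the spread between libraries of different clones within a group, pooled over the groups of all 17 libraries. How long MEKi was present before harvest is not stated clearly in the labels. Other groups are used beside the main comparison: 4OHT at 250 nM for 2 h with and without MEKi (n = 3 each), and PP1 at 2 µM without 4OHT (n = 3).

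In the ERK pathway, receptors such as those for FGF switch on RAS, RAF kinases phosphorylate MEK, and MEK phosphorylates ERK, which enters the nucleus and acts on transcription factors such as those of the ETS family. Among the first genes to respond are the immediate early genes, which encode transcription factors, and genes for inhibitors of the pathway itself: Sprouty and SPRED proteins act at the level of receptors and RAS, and DUSP phosphatases remove phosphate from ERK. In mouse embryonic stem cells FGF and ERK signalling is known for priming the cells to leave naive pluripotency, and its block is used to hold them there. RNA was labelled with ethynyl uridine (5 mM) for the last 15 min and captured, so the counts weigh towards RNA made in that time; it is called new RNA here.

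The promoters of 4 genes that fell are shown to put the responding genes' start sites in view. They were taken only from the feedback, ETS and immediate early lists, so that Id3, which fell more than all 4, was not among them; Egr1, Spry4, Myc and Dusp4 of these lists are named only. Each sequence is the 250 bases just before the RefSeq start on GRCm38.p6 (mm10), 5′ to 3′ on the gene's strand, with capitals where one of 7 searched motifs matched on either strand. These were the ETS motif CCGGAAGT, its core CGGAAG, the CRE TGACGTCA, the AP-1 motif TGANTCA, the CArG box bound by SRF, the EGR motif GCGTGGGCG and the TATA box TATAAA; the full ETS motif contains the core, and the core and the TATA box were added after the sequences had been seen. The Fos window (chr12:85473640-85473889, + strand) holds an ETS core that begins 225 bases before the start and a TATA box that begins 33 bases before it.
Fos: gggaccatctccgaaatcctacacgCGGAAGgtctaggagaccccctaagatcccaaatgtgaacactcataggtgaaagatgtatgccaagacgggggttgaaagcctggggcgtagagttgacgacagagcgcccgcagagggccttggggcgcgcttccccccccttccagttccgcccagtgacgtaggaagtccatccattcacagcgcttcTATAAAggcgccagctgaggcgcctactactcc
The Dusp6 window (chr10:99262981-99263230, + strand) holds an ETS core on the opposite strand, beginning 62 bases before the start.
Dusp6: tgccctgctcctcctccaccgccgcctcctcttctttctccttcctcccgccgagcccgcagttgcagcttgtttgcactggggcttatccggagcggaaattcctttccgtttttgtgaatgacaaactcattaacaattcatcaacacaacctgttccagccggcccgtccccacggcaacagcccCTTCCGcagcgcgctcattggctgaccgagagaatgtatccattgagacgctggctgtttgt
The Spry2 window (chr14:105896820-105897069, - strand) holds none of the 7 motifs.
Spry2: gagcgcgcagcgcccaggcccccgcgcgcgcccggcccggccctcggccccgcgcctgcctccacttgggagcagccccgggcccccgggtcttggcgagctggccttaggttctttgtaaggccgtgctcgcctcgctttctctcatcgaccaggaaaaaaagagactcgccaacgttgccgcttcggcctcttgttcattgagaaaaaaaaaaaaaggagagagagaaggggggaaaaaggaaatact
The Zfp36l1 window (chr12:80113014-80113263, - strand) holds an AP-1 motif that begins 129 bases before the start and a TATA box that begins 29 bases before it.
Zfp36l1: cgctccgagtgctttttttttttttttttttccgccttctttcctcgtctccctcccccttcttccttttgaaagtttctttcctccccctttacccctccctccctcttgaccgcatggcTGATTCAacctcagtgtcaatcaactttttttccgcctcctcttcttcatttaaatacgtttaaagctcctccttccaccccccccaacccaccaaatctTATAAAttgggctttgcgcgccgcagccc

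Library totals were 11093390 and 10044412 counts for DMSO (clones b and c) and 7408269, 7102570 and 9628690 for MEKi (clones a, b and c). Levels below are CPM, counts scaled to the size of the library, after TMM scaling. MEKi clone a stood apart by its background, read from 1422 genes that span at least 150000 bp as percentile 5 of their CPM per Mb: 14 against 5.38 and 6.15 in the other MEKi libraries and 4.03 and 4.35 in DMSO. It also had 25241 counts in Med24, where the other 4 libraries had 495 to 2888. MEKi clone b stood apart by 14 loci of very high counts, which took 32.6% of its counts against 12.4% to 17.7% in the other 4. Most of the embryonic stem cell markers checked were high in all 5 libraries. Pou5f1 was at 103 to 174 CPM, Nanog at 296 to 363 and Esrrb at 1102 to 1238. Utf1 was lower, at 10.2 to 21.4 CPM. None of the markers checked differed between the groups past the threshold. The summed level of 12 fibroblast markers was 5.46 to 5.51 CPM in DMSO and 6.21 to 12.1 in MEKi. It was highest in clone a, and 9 of the 12 were too low to be tested. Primitive endoderm markers summed to 486 to 493 CPM in DMSO and 499 to 537 in MEKi. Trophoblast markers summed to 173 to 194 CPM in DMSO and 180 to 216 in MEKi. The sums were 18.4 to 19.1 and 16.8 to 28.1 CPM for primitive streak and mesoderm. For neuroectoderm they were 34.4 to 38.8 and 32.3 to 44.8 CPM. The knockout could not be checked by level, since the labels do not place the deletion: Mapk3, which encodes ERK1, was at 13.9 and 13.2 CPM in DMSO and 8.58, 13.6 and 11.9 in MEKi.

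New RNA of 67 of the 14907 genes tested fell with MEKi and that of 12 rose (edgeR quasi-likelihood test, adjusted p under 0.05), which is 0.449% and 0.0805% of the genes. With library totals as the only scaling, 19 fell and 1 rose, the share of rises going from 15.2% to 5% as the median of all genes shifted by -0.12 (from -0.01 to -0.13 on the log2 scale). The falls were mostly small: 59 of the 67 were less than 2-fold and 30 less than 1.5-fold, with a median log2 fold change of -0.61. Within clone b, MEKi against DMSO had a median of -0.53 over these genes, and within clone c of -0.60. In bulk RNA, fewer cells of a type and less RNA per cell cannot be told apart. The 8 falls of at least 2-fold were Egr1, Spry4, Id3, Fos, Dusp6, Myc, Ftl1-ps1 and Spry2, and the plot of all genes shows these apart from the rest. The genes that fell were more highly counted and shorter than the genes tested, with a median average log2 CPM of 6.18 against 4.34 and a median span of 15509 bp against 27011 bp. Small falls pass the threshold more easily in highly counted genes, so nothing is read from the level. The 12 rises were shorter still, with a median span of 1537 bp. In every one of the 67 the 3 MEKi libraries lay below both DMSO libraries, as they did in 15.8% of all genes, and in the 12 rises they lay above them, as in 10.9% of all genes; since the calls rest on these values, nothing is read from this. Just inside the threshold was Fat3 (adjusted p = 0.0473) and just outside it Zic5 (log2 -0.74, adjusted p = 0.0501).

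**Figure D1:**
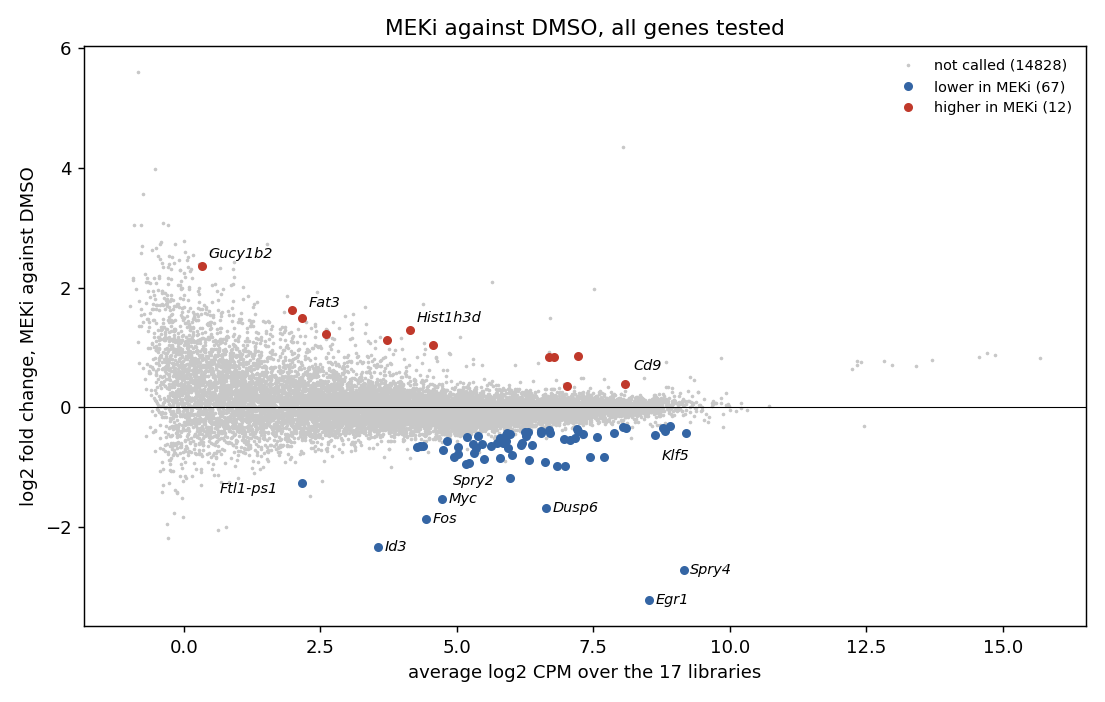
Log2 fold change of MEKi against DMSO (vertical axis) against the average log2 CPM (horizontal axis) for the 14907 genes tested, with the 67 called lower in blue and the 12 called higher in red. Egr1 and Spry4 are the lowest points among the called genes, and at low levels uncalled genes scatter more to the higher side.

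Inhibitors of the pathway itself were among the genes that fell most. Of 18 tested genes of ERK feedback inhibitors, 5 fell (Spry4, Dusp6, Spry2, Dusp4 and Spred1) and none rose, against 0.449% and 0.0805% of all genes. The median of the 18 was -0.16 on the log2 scale, against -0.01 over all genes. Spry4, a Sprouty inhibitor of receptor signalling (chr18:38586247-38601415 on mm10), was at 107 and 120 CPM in DMSO clones b and c and at 16.4, 19.3 and 17 in MEKi clones a, b and c. The MEKi libraries were close to each other and far below both controls, a 6.51-fold fall (log2 -2.70 ± 0.11 SE, adjusted p = 3.43e-14). Dusp6, the phosphatase of cytoplasmic ERK (chr10:99263231-99267489), was at 70.6 and 83.4 CPM in DMSO and at 22, 31.1 and 20.4 in MEKi. Its fall was 3.20-fold (log2 -1.68 ± 0.12 SE, adjusted p = 3.92e-09), with clone b the highest of the MEKi libraries. Spry2, a second Sprouty gene (chr14:105891947-105896819), was at 70.2 and 82.0 CPM in DMSO and at 31.3, 35 and 34.3 in MEKi, a 2.27-fold fall (log2 -1.18 ± 0.09 SE, adjusted p = 2.11e-08). The next members fell by less. Dusp4, a nuclear phosphatase of ERK, went from 19.8 and 19.4 CPM to 10.7, 12.9 and 8.05, a 1.90-fold fall. Spred1, which helps to hold RAS off through neurofibromin, went from 157 and 148 CPM to 99.0, 108 and 118, a 1.40-fold fall. Both were past the threshold (adjusted p = 0.00368 and 0.00523) but each was lost in 4 of 15 alternative fits; 3 genes of the list were called without DMSO clone b and with only the 5 libraries compared.

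The other Sprouty, SPRED and DUSP genes did not pass the threshold. Spry1 was at 11.8 and 14.2 CPM in DMSO and 8.08, 10.8 and 9.61 in MEKi (log2 -0.46 ± 0.17 SE, adjusted p = 0.292). Il17rd (Sef), a membrane inhibitor of FGF signalling, had a log2 fold change of -0.37 ± 0.10 SE (adjusted p = 0.110) and Dusp5, another nuclear ERK phosphatase, of -0.37 ± 0.17 SE (adjusted p = 0.413). For Spred2 and Spred3 the values were -0.10 ± 0.08 and 0.12 ± 0.24, and for Dusp7 and Dusp9, which were under 11 CPM in all 5 libraries, 0.38 ± 0.30 and 0.32 ± 0.51.

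**Figure D2:**
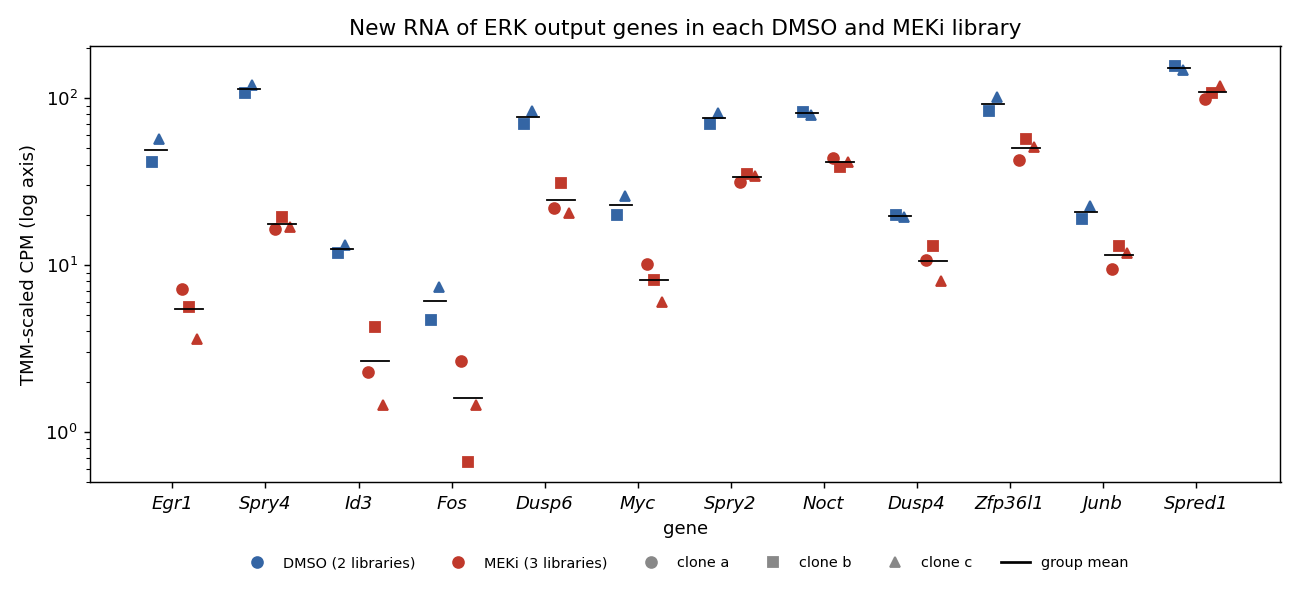
TMM-scaled CPM (log axis) of 12 genes that fell, one point per library, with DMSO in blue, MEKi in red, the clone by symbol and the group mean as a line. In each gene every MEKi point is below both DMSO points, by most in Egr1 and Spry4 and by least in Spred1.

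Immediate early genes for transcription factors fell in part. Of 21 tested, 4 fell (Egr1, Fos, Myc and Junb) and none rose, against 0.449% and 0.0805% of all genes. The median of the 21 was -0.14 on the log2 scale. Egr1, a zinc finger factor of the early response (chr18:34859823-34864984 on mm10), was at 41.3 and 57.1 CPM in DMSO and at 7.19, 5.56 and 3.59 in MEKi. This was the largest fall of all called genes, 9.24-fold (log2 -3.21 ± 0.18 SE, adjusted p = 6.84e-09). Fos, which pairs with JUN proteins to form AP-1 (chr12:85473890-85477273), was low already in DMSO, at 4.69 and 7.41 CPM, and was at 2.65, 0.654 and 1.46 in MEKi. Its fall was 3.64-fold (log2 -1.86 ± 0.30 SE, adjusted p = 0.0016), and the MEKi clones differed more among themselves than for Egr1. Myc, a factor that drives growth and metabolism (chr15:61985391-61990374), was at 20.1 and 26 CPM in DMSO and at 10.1, 8.18 and 6.02 in MEKi, a 2.88-fold fall (log2 -1.53 ± 0.19 SE, adjusted p = 5.63e-05). Junb, an AP-1 partner, went from 18.8 and 22.6 CPM to 9.46, 13.1 and 11.8, a 1.81-fold fall (log2 -0.86 ± 0.16 SE, adjusted p = 0.0105); its locus overlaps Prdx2 and the strand setting of the counting is not given, so its value is uncertain. Without DMSO clone c, and with only the 5 libraries compared, 2 genes of this list were called, Fos and Junb being lost. Without MEKi clone a or c 3 were called.

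Close relatives of these factors did not pass the threshold. Egr2, under 2 CPM in all 5 libraries, had a log2 fold change of -1.10 ± 0.43 SE (adjusted p = 0.32), and Egr3 was at 0 to 0.757 CPM, too low to show a change. Maff, a small MAF factor, was at 20.8 and 23.4 CPM in DMSO and 11.6, 14.4 and 15.2 in MEKi, and with a log2 of -0.68 ± 0.17 SE it missed the threshold (adjusted p = 0.065). Jun and Klf6 were at -0.40 ± 0.18 and -0.33 ± 0.12 (adjusted p = 0.417 and 0.293). Fosl1, Srf, Nr4a1, Jund and Hes1 had log2 values between -0.26 and -0.07, and Nab2, Fosl2, Klf10, Fosb, Atf3 and Nr4a3 between 0.15 and 1.14, with none past the threshold.

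Of 17 other immediate early genes, 2 fell, against 0.449% of all genes. Both encode proteins that bind AU-rich elements and speed mRNA decay. Zfp36l1 was at 83.3 and 102 CPM in DMSO and at 42.8, 57.2 and 51.0 in MEKi (1.84-fold, log2 -0.88 ± 0.10 SE, adjusted p = 1.51e-05). Zfp36l2 was at 28.1 and 40.7 CPM in DMSO and at 19.3, 19.3 and 22 in MEKi (log2 -0.76 ± 0.17 SE, adjusted p = 0.0461), and in 10 of 15 alternative fits, with log2 values from -0.99 to -0.44, it was not called. Their relative Zfp36 was at -0.44 ± 0.24 (adjusted p = 0.512). Ier2, an early nuclear protein, was just outside the threshold (58.6 and 66.6 CPM against 41.3, 51.7 and 42.4, adjusted p = 0.0544). Hbegf, an EGF receptor ligand, and Arc had log2 values of -0.33 ± 0.12 and -0.18 ± 0.14 (adjusted p = 0.292 and 0.679).

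Genes outside these lists made up the rest of the largest falls. Id3, an inhibitor of basic helix-loop-helix factors and a known BMP target, was at 11.8 and 13.1 CPM in DMSO and at 2.27, 4.25 and 1.46 in MEKi, a 5.00-fold fall (log2 -2.32 ± 0.24 SE, adjusted p = 1.90e-06). Of the other ID genes none passed the threshold, with log2 values of -0.05 ± 0.24 for Id1, 0.34 ± 0.14 for Id2 and -0.55 ± 0.17 for Id4 (adjusted p = 0.959, 0.36 and 0.165). Smad7, an inhibitor of TGF-beta and BMP signalling, was the only other called gene of the 17 tested BMP, SMAD and ID genes: it went from 523 and 564 CPM to 386, 401 and 426 (log2 -0.43 ± 0.09 SE, adjusted p = 0.0355), a call lost in 7 of 15 alternative fits. Noct, a circadian phosphatase, went from 83.2 and 79.9 CPM to 43.8, 38.8 and 41.6 (1.97-fold). Cdc42ep4, a CDC42 effector, went from 116 and 123 CPM to 59.6, 64 and 59.96 (1.96-fold). In both genes the 3 MEKi libraries were within a few CPM of each other. Slc39a14, a zinc and iron importer, went from 86.4 and 81.5 CPM to 38.5, 51.5 and 44.7 (1.88-fold), and Serpinb9b, a serpin, from 14.6 and 15.7 CPM to 9.21, 6.22 and 8.05 (1.91-fold). Ftl1-ps1, named as a copy of the ferritin light chain gene, had a 2.38-fold fall (adjusted p = 0.0195), which is uncertain because reads could be split with Ftl1. Among smaller falls, chosen for naming after their values were seen, were Tiparp, a PARP family enzyme (204 and 190 CPM against 112, 116 and 105), and Enc1 (156 and 160 CPM against 86.3, 105 and 76.5). Symbols of Zfp and a number, mostly zinc finger factors and without those beginning Zfp36, made up 7 of the 67 falls (10.4%). They were 2.33% of all genes tested. This class was not one of the gene lists, so nothing is read from these shares. Of the 7, Zfp719 was called in all 15 alternative fits. The calls of Zfp819, Zfp715, Zfp330, Zfp280b, Zfp459 and Zfp57 were lost in 4 to 10 of them.

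No gene of the cascade itself was called. Of 27 tested genes for RAS, RAF, MEK, ERK, their adaptors and scaffolds, 21 were below 0, as were 52.2% of all genes. Their median log2 was -0.06, against -0.01 over all genes. Map2k1 and Map2k2, which encode MEK1 and MEK2, were at -0.03 ± 0.08 and 0.05 ± 0.08 (adjusted p = 0.929 and 0.853). The ETS list also had no called gene among 10, with a median of -0.05. Its PEA3 members, common readouts of FGF signalling, were at -0.44 ± 0.11 for Etv1, -0.44 ± 0.13 for Etv4 and -0.27 ± 0.08 for Etv5 (adjusted p = 0.0869, 0.162 and 0.149). For Etv5 this was 381 and 364 CPM in DMSO against 308, 316 and 305 in MEKi. The 3 MEKi libraries lay below both DMSO libraries in 4 of the 10 ETS genes and above them in 1. Over all genes this was so in 15.8% and 10.9%. Of 12 FGF ligand and receptor genes none was called. Fgf4, the main FGF of these cells, was at 205 and 245 CPM in DMSO and 240, 273 and 236 in MEKi (log2 0.15 ± 0.09 SE, adjusted p = 0.568), and Fgfr1 at 0.11 ± 0.09. Fgfr2 is one of the 14 high-count loci and is not read here. At an unadjusted p under 0.05, where 1038 genes were lower and 647 higher, 2 of the 27 cascade genes and 3 of the 10 ETS genes were lower and 1 of each list was higher.

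Some genes of pluripotency fell by small amounts. Among 22 tested naive genes, 5 fell (Nr0b1, Dppa2, Klf5, Dppa4 and Zfp57) and none rose, against 0.449% and 0.0805% of all genes. The median of the 22 was -0.02. Nr0b1 (DAX1), a nuclear receptor of naive cells, was at 84.5 and 79.5 CPM in DMSO and at 45.4, 57.4 and 40.8 in MEKi (1.73-fold, adjusted p = 0.0132). Dppa2 was at 69.1 and 61.7 CPM in DMSO and at 42.6, 40.7 and 39.2 in MEKi (1.6-fold, adjusted p = 0.000884). Its partner Dppa4, in the same chromatin complex, was at 63.4 and 62.4 CPM against 49.8, 45.3 and 44.0 (log2 -0.44 ± 0.09 SE). Klf5, a KLF factor, was at 342 and 356 CPM against 249, 269 and 249 (1.37-fold, adjusted p = 0.00206), and Zfp57, a guard of imprints, at 363 and 347 CPM against 266, 286 and 286. The other KLF factors of the list were at 0.06 ± 0.08 (Klf4) and 0.20 ± 0.19 (Klf2), and Nanog, Esrrb and Prdm14 lay between -0.06 and 0.13, with none past the threshold. The calls of this list depended on the fit: 1 gene of it was called with library totals as the scaling and 1 without DMSO clone b, DMSO clone c or MEKi clone c, 2 were called with only the 5 libraries compared, and 3 without MEKi clone a or b. Zfp57 was not called in 10 of the 15 alternative fits and Dppa4 in 6.

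In the core and formative lists, with 13 and 16 genes tested, 1 gene each fell and none rose, against 0.449% and 0.0805% of all genes. Zic2, a zinc finger factor of the formative list, went from 35.5 and 32.9 CPM to 21.6, 21.6 and 15.5 (1.77-fold, adjusted p = 0.00635), a call lost in 4 of 15 alternative fits. Zic5, the neighbour of Zic2 on chromosome 14, was the gene just outside the threshold, at 30.9 and 24.6 CPM against 16.8, 20.6 and 13.4. Pou5f1 and Sox2 were at -0.28 ± 0.28 and -0.24 ± 0.11 (adjusted p = 0.759 and 0.39), and Otx2 and Dnmt3a at -0.17 ± 0.17 and 0.10 ± 0.12. Pou3f1, a factor of the primed epiblast, was under 2 CPM (1.56 and 1.48 against 0.379, 0.981 and 0.388, adjusted p = 0.165).

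Growth and lineage lists had few calls. Rrn3, an initiation factor of RNA polymerase I, was the only called gene of 30 for ribosome biogenesis (271 and 278 CPM against 215, 220 and 220, log2 -0.33 ± 0.07 SE, adjusted p = 0.0156), a call lost in 7 of 15 alternative fits; the list's median was 0.02. Taf1a, of the same polymerase's promoter factor and outside the list, went from 58.2 and 61.4 CPM to 44.2, 36.1 and 44.8. Its call (log2 -0.51 ± 0.10 SE) was lost in 5 of 15 alternative fits. None was called among 18 tested MYC targets of metabolism (median 0.08), 27 cell cycle genes (median -0.02), 21 genes of cholesterol synthesis (median -0.18), 13 of the LIF pathway, 14 Nodal and Lefty genes or 11 Wnt targets (median 0.29). The lists for primitive endoderm (14 tested), trophoblast (11), primitive streak and mesoderm (9), neuroectoderm (6), cytoskeletal SRF targets (16), p53 targets (15), stress response (14), heat shock (11), long-lived mRNAs (15), fibroblasts (3) and cells like the 2-cell embryo (1) had none either. The 13 mitochondrial symbols had 0 counts.

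**Figure D3:**
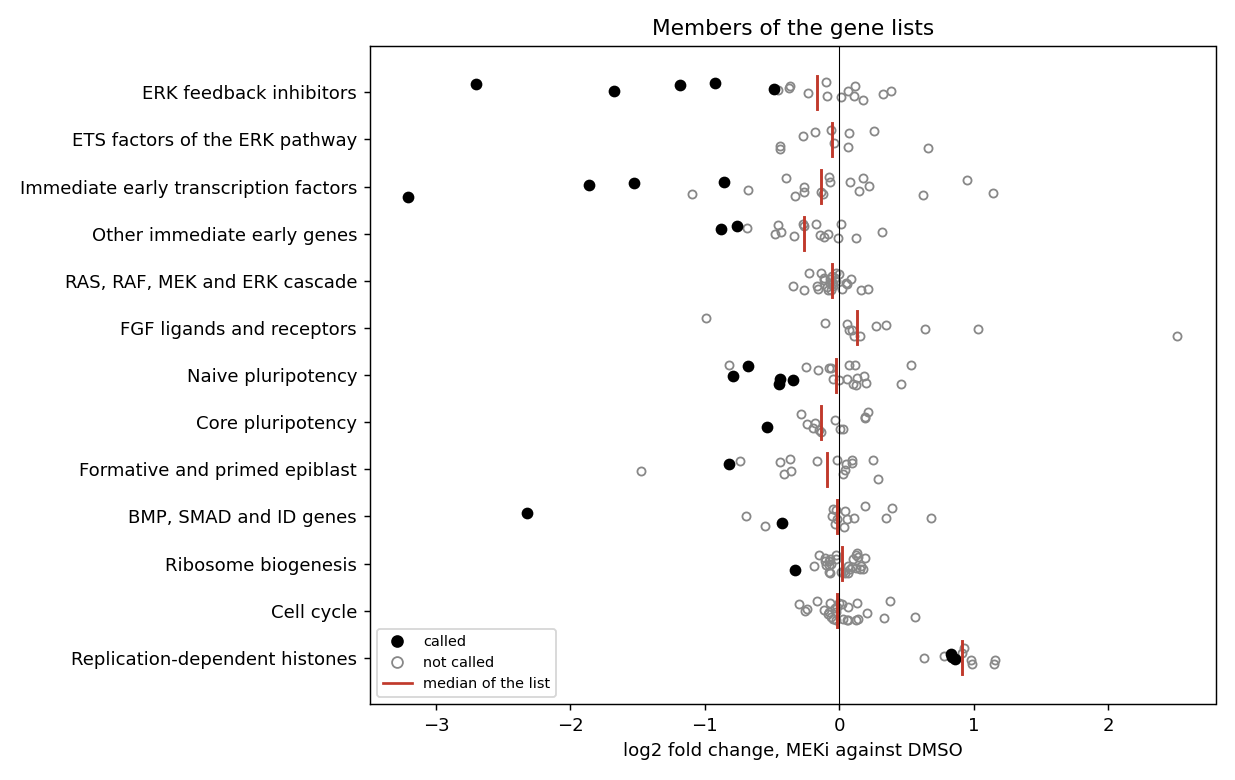
Log2 fold change of MEKi against DMSO (horizontal axis) for each tested member of 13 lists, filled where called, with the median of the list as a red line. The called members of the ERK feedback and immediate early lists lie to the left and 3 called histone genes to the right, while most medians are near 0.

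Most of the 12 rises were replication-dependent histone genes, whose mRNAs end without a poly(A) tail and are made in S phase. These were Hist1h1a, Hist1h1b, Hist1h1d, Hist1h2ad, Hist1h3d, Hist1h4i, Hist1h4j and Hist2h3c1. Hist1h3d was at 11.1 and 8.98 CPM in DMSO and at 28.0, 28.5 and 18.3 in MEKi, a 2.45-fold rise (log2 1.29 ± 0.18 SE, adjusted p = 0.000316). Hist1h1b, a linker histone, was at 75.3 and 84.5 CPM in DMSO and at 139, 173 and 120 in MEKi, a 1.79-fold rise (log2 0.84 ± 0.13 SE, adjusted p = 0.0016). Over all 57 tested symbols beginning Hist1h to Hist4h, a wider set chosen after the data were seen, 8 rose, none fell and the median was 0.84; all 57 were above 0, where 52.2% of all genes were below it, and in 49 the 3 MEKi libraries lay above both DMSO libraries, as in 10.9% of all genes. On the fixed list of histones 3 of 11 rose, against 0.0805% of all genes, with a median of 0.92. Reads of near-identical histone copies could be split, so single histone genes are uncertain.

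In the MEKi and DMSO libraries the histone level was highest where the 14 high-count loci took the largest share of counts. Summed over the symbols it was 776 and 842 CPM in DMSO (shares 12.4% and 15.7%) and 1405, 1903 and 1093 CPM in MEKi (shares 17.7%, 32.6% and 15.1%). The highest MEKi value was in clone b, which had the highest share, and MEKi clone c, with a share between those of the DMSO libraries, was still above both of them. Without MEKi clone b the median of the 57 was 0.61 with 4 called higher, and with the 14 loci left out it was 0.86 with 5 called. With library totals it was 0.71 with 1 called. In the other groups the sums ran from 840 CPM in 4OHT clone c (share 13.1%) to 2360 CPM in PP1 clone a (share 42.0%). The order of the sums did not always follow that of the shares: 4OHT clone b had 1319 CPM at a share of 28.9%, and PP1 clone b had 1584 CPM at 16.1%. A part of these loci in the result beyond these values was not tested.

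**Figure D4:**
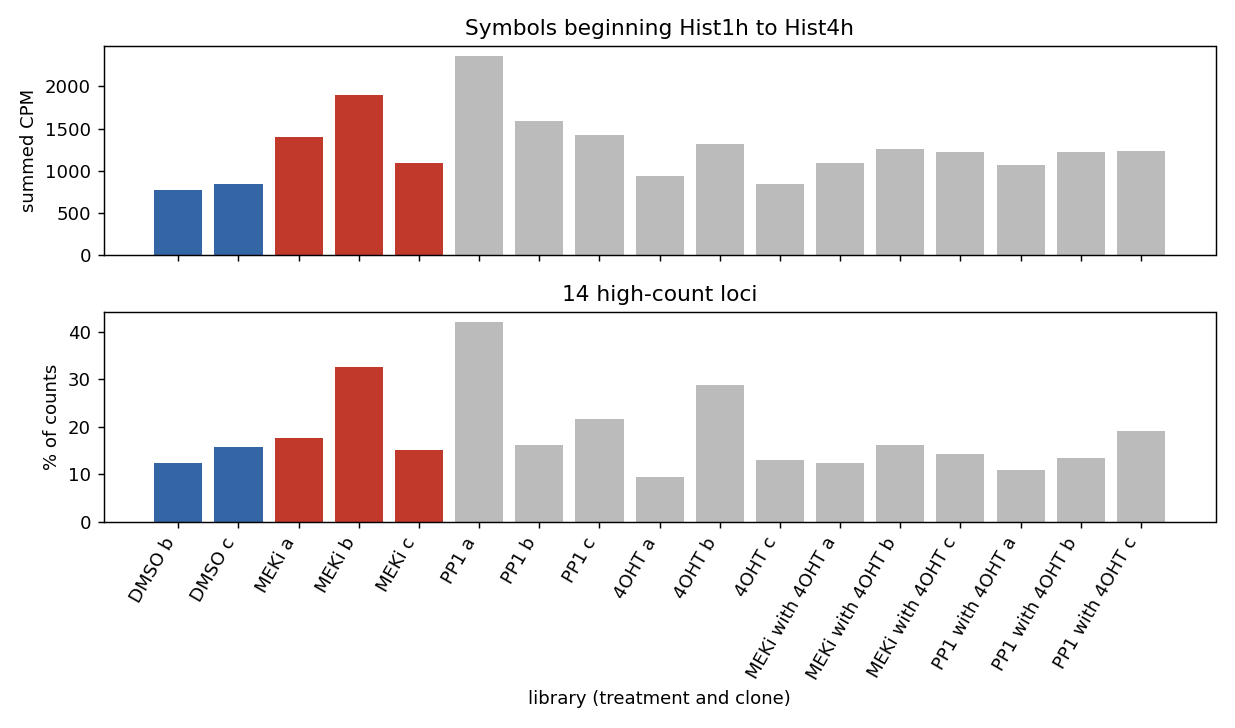
Summed TMM-scaled CPM of the symbols beginning Hist1h to Hist4h (upper bars) and the percentage of counts in the 14 high-count loci (lower bars) in each of the 17 libraries, with DMSO in blue and MEKi in red. The 3 MEKi libraries have higher histone sums than the 2 DMSO libraries, and the tallest bars of MEKi and PP1 in the upper panel are also the tallest in the lower one.

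The other rises were Cd9, Cth, Fat3 and Gucy1b2. Cd9, a tetraspanin of the cell surface, went from 183 and 194 CPM to 223, 258 and 258 (1.31-fold, adjusted p = 0.0176). Cth, which makes cysteine from cystathionine, went from 133 and 142 CPM to 180, 164 and 186 (1.28-fold, adjusted p = 0.0353). The call of Cd9 was lost in 4 of 15 alternative fits and that of Cth in 6. Fat3, a large cadherin, went from 2.80 and 2.59 CPM to 9.59, 7.52 and 5.82, and Gucy1b2 from 0.329 and 0.463 CPM to 2.40, 1.96 and 1.84. These last were lowly counted genes, were lost in 11 alternatives of 15 for Fat3 and 11 of 14 for Gucy1b2, and were higher in the libraries of higher background (14, 5.38 and 6.15 CPM per Mb against 4.03 and 4.35); a part of the background in them was not tested.

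Across the genes that fell, the promoter windows gave a description only. Of the 67, 48 had a sequence in the set of 32851 promoters used here. Of these 48, 18 (37.5%) held the ETS core, Fos, Dusp6, Junb and Spred1 among them. The share was 13.6% of all 32851 promoters and 23.4% of those of tested genes. The core was added to the search after the printed sequences had been seen, so nothing is read from its share. The full ETS motif was in 5 (10.4%, against 2.88% of all promoters and 5.5% of those of tested genes), the AP-1 motif in 1 (2.08%, against 6.75% of all and 4.51% of those of tested genes) and the TATA box in 3 (6.25%, against 12.4% and 6.55%). The CRE, the CArG box and the EGR motif were in 0 of the 48 windows, in 1.55%, 1.47% and 0.536% of all promoters and in 2.56%, 1.15% and 1.06% of those of tested genes.

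The genes that fell without 4OHT were then followed where RAF was on. MEKi with 4OHT was set against 4OHT alone, a comparison with no library in common with the first. There 60 of the 67 (89.6%) were lower, none was higher and 65 were below 0, with a median log2 of -1.39. Of all genes tested, 28.4% were called lower and 28.4% higher in that comparison. With library totals as the scaling, 80% of its calls were higher, against 50% here. Egr1 was at 1804, 1855 and 1899 CPM with 4OHT alone and at 0.95, 1.2 and 1.57 CPM with MEKi as well. Spry4 was at 2182, 2306 and 2473 CPM with 4OHT alone and at 1.52, 2.20 and 1.08 with MEKi as well. With MEKi present, both had lower values with 4OHT than without it, in ranges that did not overlap (16.4 to 19.3 CPM for Spry4 in MEKi alone); that difference was not tested. Dusp6 was at 274, 265 and 293 CPM with 4OHT alone and at 5.51, 5.89 and 5.2 with MEKi as well. Among the naive genes, Klf5 was at 755, 731 and 784 CPM and then at 148, 140 and 139, a log2 fold change of -2.41 ± 0.07 SE. The genes whose value with 4OHT was above 0 were C1galt1 and Bet1 (0.21 and 0.09, neither called). Of the 12 rises, 6 were higher with 4OHT as well, Hist1h1b at 1.09 ± 0.12 and Cth at 1.31 ± 0.08 among them, and none was lower. Over all 57 histone symbols 6 were higher and 1 was lower there, with a median of 0.04.

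The size of the MEKi effect differed with and without 4OHT. The difference of the effects was called for 40.4% of all 14907 genes, negative in 2875 of them and positive in 3147. Of the 67 falls, 45 fell further with 4OHT, 5 had a positive difference and 17 had none called; the 67 were chosen on values that enter this difference. For Spry4 the difference was -7.79 ± 0.19 on the log2 scale, for Egr1 -7.33 and for Serpinb9b -4.85. It was called also for Arc and Hbegf, which had not passed the threshold without 4OHT (-5.66 ± 0.18 and -4.50 ± 0.17). At the other end were Kit, a receptor of the stem cell factor, and Arhgap8, with differences of 1.90 ± 0.11 and 2.88 ± 0.17. Their values without 4OHT were -0.02 ± 0.08 and 0.12 ± 0.12. With library totals 86.5% of the called differences were positive, against 52.3% here.

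**Figure D5:**
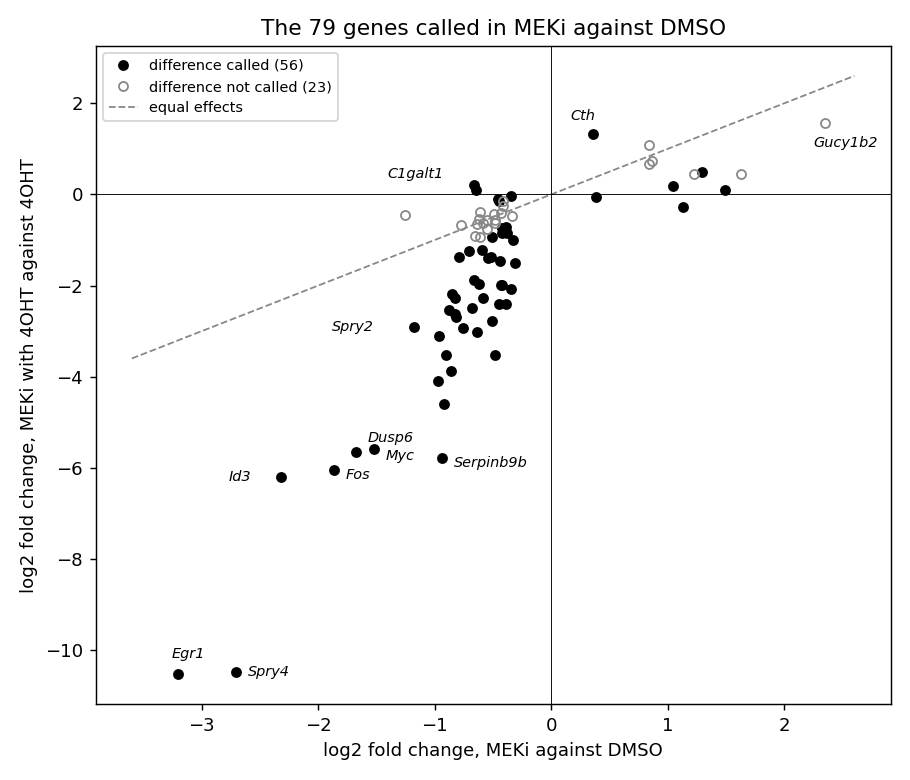
Log2 fold change of MEKi with 4OHT against 4OHT (vertical axis) against that of MEKi against DMSO (horizontal axis) for the 79 called genes, filled where the difference of the effects was called, with a dashed line for equal effects. Most genes that fell lie below the line, Egr1 and Spry4 near -10.5 on the vertical axis.

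The same genes were also read in 4OHT alone against DMSO. Of the 67, 44 were higher with 4OHT than in DMSO, 6 were lower and 17 were not called, where 25.7% of all genes tested were called higher and 26.3% lower; this comparison shares the DMSO libraries with the main one, so no agreement is read from it. Spry2 was at 105, 108 and 98.7 CPM with 4OHT, at 70.2 and 82.0 in DMSO and at 31.3 to 35 in MEKi. Nr0b1 was at 65.2, 93.6 and 68.3 CPM with 4OHT, overlapping its DMSO values of 84.5 and 79.5, and was at 40.8 to 57.4 in MEKi. Both genes were below DMSO with MEKi, while only for Spry2 did the 4OHT libraries lie above it.

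PP1, which acts on the ERK2 Q103A kinase rather than on MEK, left more new RNA of some of these genes than MEKi did. The drugs were tested at 1 dose each, so the values compare these treatments and not the targets. Of 14907 genes, 11 were higher with PP1 than with MEKi (0.0738%) and none was lower; at an unadjusted p under 0.05, 300 were higher and 306 lower, and DESeq2 gave 19 higher and 1 lower. This comparison uses the same MEKi libraries as the main one. Spry4 was at 50.3, 41.9 and 47.3 CPM with PP1, between its DMSO values (107 and 120) and its MEKi values (16.4, 19.3 and 17), and PP1 exceeded MEKi by 1.40 ± 0.11 on the log2 scale (adjusted p = 4.80e-08). Id3 was at 10.5, 10.9 and 9.68 CPM with PP1, near its DMSO values of 11.8 and 13.1 and above 2.27, 4.25 and 1.46 with MEKi (2.06 ± 0.23, adjusted p = 2.54e-05). Dusp6 and Spry2 were higher with PP1 by 1.02 ± 0.11 and 0.80 ± 0.09. Also called were Noct (0.66 ± 0.10), Zfp819 (0.64 ± 0.13), Zfp36l1 (0.57 ± 0.10), Tiparp (0.54 ± 0.08), Cdc42ep4 (0.50 ± 0.09) and Enc1 (0.45 ± 0.09).

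Egr1 had overlapping values under the drugs: it was at 8.17, 5.08 and 5.51 CPM with PP1 and at 7.19, 5.56 and 3.59 with MEKi, overlapping groups with a difference of 0.14 ± 0.24 (adjusted p = 0.984). Junb, at 15.3, 11.1 and 12.6 CPM with PP1, also overlapped MEKi (0.15 ± 0.17). Myc and Nr0b1 were just outside the threshold (0.96 ± 0.19 and 0.72 ± 0.14, both with an adjusted p of 0.0512). Set against DMSO, which both drugs share, PP1 values over the 67 had a median of -0.32 where MEKi had -0.61 (the medians of all genes were -0.02 and -0.01), and 16 of the 67 were called lower with PP1, as were 0.161% of all genes; the 67 were chosen against the same DMSO libraries, so nothing is read from this. For Egr1 the values against DMSO were -3.06 with PP1 and -3.21 with MEKi, and for Id3 -0.26 and -2.32. Hist1h3d was at 31.1, 26 and 22.4 CPM with PP1 and Hist1h1b at 162, 177 and 160, and neither differed between the drugs (0.08 ± 0.15 and 0.22 ± 0.11, adjusted p = 0.984 for both).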

How the data were processed

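RNA labelled for 15 min was sequenced in 17 libraries. The authors deposited 1 table of raw counts per gene symbol, whole numbers with no normalization; per the submitters' processing notes, the aligner was STAR, the build mm10 and the counter featureCounts. Of their versions, the annotation and the strand setting nothing is given in the sources used here. Of 25899 symbols, 25595 matched GENCODE mouse release 21, which gave coordinates on mm10; matching used symbols only.

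The fit was made with edgeR 4.0.16 (R 4.3.3) on all 17 libraries, as a robust quasi-likelihood model with a term for each group, TMM factors and 11 residual degrees of freedom. Of the genes, 14907 passed filterByExpr. A call needs a Benjamini-Hochberg adjusted p, over all these genes, of under 0.05. SE is the absolute log2 fold change over the square root of F, an approximation. A count of 3 corresponds to 0.247 to 0.491 CPM in the 5 libraries compared. DESeq2 1.42.0 and limma 3.58.1 gave alternatives.

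The comparisons, members and 30 gene lists, written from general knowledge, were chosen with earlier results of these data known. Genes were named by a rule: the 15 largest rises and 15 largest falls among calls with a log2 CPM of 1 or more and the same direction in clones b and c, 5 of each kind in the other comparisons, list members called or not, and genes of the highest counts in libraries that stood apart. Others named were chosen after their values were seen. Results of some genes are not reported here. Promoters were those of the 4 members of the feedback, ETS and immediate early lists with the largest called falls. These needed a sequence in the promoter set used, a log2 CPM of 3 or more and a place outside chromosome 18.

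Libraries are paired by the clone that the labels name. After subtraction of group means, libraries of 1 clone correlated across genes by 0.086 in the mean (40 pairs, 16 above 0.1) and those of different clones -0.043 (80 pairs); for DMSO and MEKi the mean over 2 same-clone pairs was 0.013. With clone as a replicate block, 120 genes were called in MEKi against DMSO (14 higher, 106 lower), against 79 without it.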

Additional observations from a re-analysis of the deposited data

Results flagged for a closer look

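The effect of MEKi differed between cells with and without 4OHT for 6022 genes by a test of the difference itself (edgeR, adjusted p under 0.05), and the genes chosen by the naming rule had the following values, each the log2 fold change with 4OHT minus that without. Feedback inhibitors had -7.79 for Spry4, -3.97 for Dusp6, -3.68 for Dusp4, -3.04 for Spred1 and -1.74 for Spry2. Early response genes had -7.33 for Egr1, -5.66 for Arc, -4.50 for Hbegf, -4.19 for Fos, -4.07 for Myc, -3.02 for Junb and -1.66 for Zfp36l1. Other genes that fell had -4.85 for Serpinb9b, -3.88 for Id3, -3.12 for Noct, -2.61 for Slc39a14 and -2.14 for Cdc42ep4, and Pla2g7, not called without 4OHT, had -5.59. Of the genes that rose, the difference was -1.41 for Hist2h3c1, -1.38 for Fat3, -0.86 for Hist1h4i, -0.81 for Hist1h3d, -0.44 for Cd9 and 0.96 for Cth. Positive differences among genes not called without 4OHT were 2.88 for Arhgap8, 2.6 for St8sia1, 2.55 for Mcf2, 2.30 for Azin2 and 1.90 for Kit.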

How the results depend on the processing

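MEKi against DMSO gave 79 calls. DESeq2 gave 132, clone as a replicate block 120, the block with clones b and c only (added after the data were seen) 154, library totals 20, and a fit of the 5 libraries alone 23. DESeq2's size factors gave 73, no filter 98, a stricter filter 75, limma-voom 81 and the high-count loci left out 71. Leaving out 1 library gave 19 (without DMSO clone c) to 52 (without MEKi clone b); it was 33 without DMSO clone b, 38 without MEKi clone a and 44 without MEKi clone c. Where 1 DMSO library was left, it was assumed to vary like the other groups. No sign turned among the 79 in any of these 15 alternatives, and 13 genes were called in all 15, each a fall: Egr1, Spry4, Id3, Dusp6, Myc, Spry2, Noct, Cdc42ep4, Slc39a14, Zfp36l1, Zfp719, Enc1 and Tiparp. Fos was lost in 2, Hist1h3d in 1, Junb in 5, Hist1h1a in 8 and Hist1h1d in 10. PP1 against MEKi, with 11 calls, gave 20 by DESeq2, 19 with the block and clones b and c only, 3 with library totals, 3 with only the libraries compared and 14 with the replicate block. Leaving out 1 library gave 6 (MEKi clone c or PP1 clone b) to 13 (PP1 clone a), with 7 without PP1 clone c and 8 without MEKi clone a. For MEKi with 4OHT against 4OHT and for the difference of the effects the counts stayed within 1.5 times of 8463 and 6022 under the same alternatives, with the splits given above. The genes called changed more than these counts. With library totals, 5698 of the 8463 calls were kept, 1465 calls were lower and 739 signs turned. For the difference of the effects, library totals kept 3888 of the 6022 calls and turned 621 signs. The cause of these changes was not tested, except that fits with fewer libraries have fewer degrees of freedom. The depth was 7102570 to 11093390 counts in the 5 libraries compared, and a count of 3, taken as the floor, is 0.247 to 0.491 CPM.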
